A study of Mus musculus with 6 samples.

Results

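Acinar cells secrete digestive enzymes when hormones and nerve transmitters reach receptors on their basolateral membrane, and the 10 genes described here encode those receptors and the calcium machinery they drive. They are the cholecystokinin receptor Cckar, the muscarinic acetylcholine receptors Chrm3 and Chrm1, the secretin receptor Sctr, the G protein alpha subunit Gnaq, the inositol trisphosphate receptors Itpr1, Itpr2 and Itpr3, the store calcium sensor Stim1 and the calcium entry channel Orai1. They were picked by symbol for their function, with earlier results of these data known. All 10 were found among 55414 gene identifiers and were among the 13115 genes with enough counts to be tested. RNA sequencing was done on 6 preparations of adult mouse pancreatic acinar cells, 3 with the genotype Pdx1Cre;Trip12+/+ (control) and 3 with Pdx1Cre;Trip12fl/fl (knockout), all untreated. Every animal thus carried the Cre recombinase, driven by the promoter of Pdx1, a gene active in the pancreatic epithelium from early development, so the promoter is not limited to adult acinar cells. Trip12 encodes an E3 ubiquitin ligase. The strain, the age beyond adult and the way the cells were isolated are not given in the sources used here.

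As background, cholecystokinin and acetylcholine bind receptors coupled to the Gq class of G proteins, which activate phospholipase C. The inositol trisphosphate it makes opens inositol trisphosphate receptors in the endoplasmic reticulum, and the calcium released near the apical pole triggers fusion of zymogen granules. When the store empties, STIM1 in its membrane gathers and opens ORAI channels in the plasma membrane, which refill it. Secretin acts through the other main route, Gs and cyclic AMP, and is best known for bicarbonate secretion by duct cells.

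The 3 inositol trisphosphate receptors, and likewise the muscarinic receptors, are related in sequence, so it matters whether a read from a member could be counted to another. The longest letter-for-letter runs shared by their coding sequences are shown here with the letters around them. For Itpr1 and Itpr2 only the length of the run is given. Stretches that are alike but for scattered mismatches were not searched. Capitals mark the shared run and lower case the flanks. The letters are the transcript strand, 5′ to 3′, of the longest coding transcript in GENCODE M21 on mouse build GRCm38.
Itpr2: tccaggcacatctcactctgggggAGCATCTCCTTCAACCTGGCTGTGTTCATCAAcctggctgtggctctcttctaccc
Itpr3: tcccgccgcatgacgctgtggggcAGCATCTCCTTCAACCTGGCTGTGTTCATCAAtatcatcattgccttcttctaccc
Itpr1: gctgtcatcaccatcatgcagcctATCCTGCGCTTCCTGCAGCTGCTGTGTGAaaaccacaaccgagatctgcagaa
Itpr3: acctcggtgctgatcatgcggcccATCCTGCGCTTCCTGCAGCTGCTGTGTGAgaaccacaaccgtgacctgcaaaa
Chrm1: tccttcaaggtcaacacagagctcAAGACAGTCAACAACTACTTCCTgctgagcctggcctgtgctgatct
Chrm3: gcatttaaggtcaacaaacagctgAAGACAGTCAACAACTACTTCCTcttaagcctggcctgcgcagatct
The first run is 32 bases long and lies in coding bases 6667 to 6746 of Itpr2, on chromosome 6, and 6589 to 6668 of Itpr3, on chromosome 17, flanks included and counted from the first coding base. The run of Itpr1 and Itpr3 has 29 bases, that of Itpr1 and Itpr2 has 28, and that of Chrm1, on chromosome 19, and Chrm3, on chromosome 13, has 23. No stretch of 50 bases was shared among members. Of all 50-base words in their transcripts, at most 4.32% (Chrm1, all in the gene model Gm22820) were found in any other gene, and Cckar, Chrm3, Sctr, Stim1 and Orai1 had none. The length of the reads is not given in the sources used here.

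The libraries held 31019500 to 34041901 gene counts. CPM is the count scaled to a common library size with TMM factors, which correct for a few genes taking most reads. All 10 acinar markers listed were tested. Together they made up 361652, 478920 and 462839 CPM in control against 332391, 325750 and 337711 in knockout, the groups lying apart. That separation depended on the TMM factors, which were lower in every control than in any knockout. Rbpjl, among the 10 acinar markers, went the other way and was higher in every knockout than in any control. The labels were checked on Trip12, which had 29.0, 22.3 and 26.4 CPM in control against 14.4, 14.7 and 13.0 in knockout, with no overlap (log2 fold change -0.89, adjusted p 0.0256, edgeR; called in 10 of 17 alternative fits, and -0.49 and not called with library totals). Both female libraries, by Xist and Y-linked counts, are control replicates 2 and 3, so sex and genotype are partly confounded. Smooth muscle markers summed to 40.0 and 32.1 CPM in replicate 1 of control and knockout and to 1.09 to 10.4 CPM in the other 4 libraries.

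None of the 10 genes passed the test between genotypes. In edgeR's quasi-likelihood test 0 members were called at a Benjamini-Hochberg adjusted p under 0.05, where 0.945% of all tested genes were called, and 2 had an unadjusted p under 0.05, Cckar and Chrm1, where 16.7% of all tested genes did. DESeq2 called both of these lower and no other member, where it called 4.53% of all genes, 1.97% higher and 2.55% lower. With the replicate number as a block 1 member, Chrm1, was called lower, where 5.99% of all genes were called, 3.40% higher and 2.58% lower. The fitted log2 fold change was below 0 for 6 members and above 0 for 4, with a median of -0.17 against 0.02 over all tested genes. In bulk RNA, fewer cells of a type and less RNA per cell cannot be told apart.

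In 4 members, Cckar, Chrm3, Chrm1 and Orai1, every knockout library lay below every control, which held for 10.9% of all tested genes. In none did every knockout lie above. That count depended on the scaling. Scaled by library totals instead of TMM factors, 0 members lay wholly lower and 2, Gnaq and Stim1, wholly higher, where 1.98% and 38.9% of all tested genes did, and the log2 fold change of all genes moved up by 0.41 at the median. Fold changes under that scaling are given where they change the direction.

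**Figure D1:**
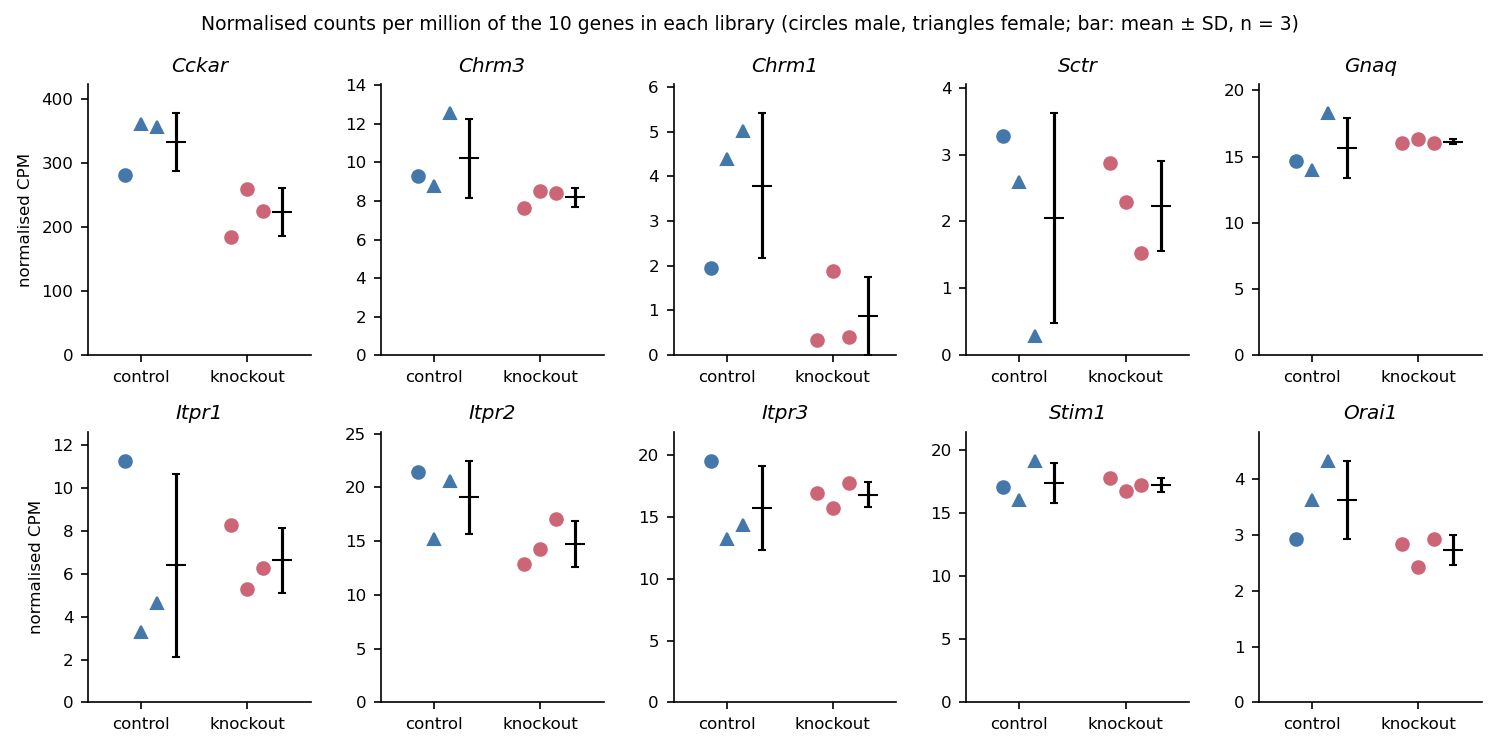
Normalised CPM (y axes, each from 0) of the 10 genes in the 3 control (blue) and 3 knockout (red) libraries, with male libraries as circles, female as triangles, and the mean ± SD in black. The Cckar values of 185 to 259 in knockout lie below the 281 to 362 of control, the Chrm1 groups nearly touch, and the Gnaq and Stim1 groups overlap.

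Per kilobase of exon, the scale on which levels can be set against each other, Cckar stood far above the rest. It averaged 90.4 CPM per kb ± 12.2 (SD, n = 3) in control, and Gnaq, next in order, 2.53 ± 0.370. Itpr3 (1.74 ± 0.374), Stim1 (1.68 ± 0.154), Chrm3 (1.63 ± 0.326), Orai1 (1.58 ± 0.304) and Itpr2 (1.29 ± 0.230) followed, and the ranges of neighbours in this order overlapped from Itpr3 to the end. Sctr, Chrm1 and Itpr1 came last, with 1.02 ± 0.777, 0.584 ± 0.250 and 0.349 ± 0.234 CPM per kb in control. In knockout the first 6 kept their order, and Sctr stood above Itpr2 and Itpr1 above Chrm1.

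Cckar (ENSMUSG00000029193, chromosome 5) encodes the receptor through which cholecystokinin drives enzyme secretion in the mouse. It had 281, 362 and 356 CPM in control replicates 1 to 3, from 8803 to 9795 counts. The knockout libraries had 185, 259 and 226 CPM, from 6911 to 9085 counts. Every knockout library lay below every control, and in each numbered pair the knockout was the lower. The mean went from 333 CPM ± 44.9 (SD, n = 3) to 224 CPM ± 37.1, or -0.57 on the log2 scale (SE 0.19, 95% interval -0.997 to -0.15), and edgeR gave an adjusted p of 0.178. It was called by DESeq2 (adjusted p 0.0176) and by none of the other 16 alternative fits. The fold change stayed below 0 in all 17 alternative fits, from -0.71 to -0.15. By library totals the controls were at 286, 284 and 288 and the knockouts at 221, 290 and 262, and the groups overlapped, with a log2 fold change of -0.15. The male control, at 281 CPM, lay above all 3 knockouts, which are also male, and 0.33 log2 units above their mean. With sex as a covariate the log2 fold change was -0.33. With TMM factors the summed acinar markers were also lower in every knockout, a separation that likewise depended on the scaling. The 10 marker genes had a median of -0.37 on the log2 scale (0 called, 2 with the block). They did not all move together. Rbpjl had 183, 280 and 180 CPM in control against 486, 658 and 370 in knockout. The part of the acinar markers in the Cckar difference was not tested.

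Chrm3 (ENSMUSG00000046159) encodes the M3 receptor, the main muscarinic receptor of acinar cells. Control replicates 1 to 3 had 9.29, 8.79 and 12.5 CPM and the knockouts 7.64, 8.54 and 8.40. The groups did not overlap, but the lowest control (8.79) and the highest knockout (8.54) were close. The log2 fold change was -0.32 (95% interval -0.69 to 0.05, adjusted p 0.376, edgeR) and turned to 0.10 with library totals.

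Chrm1 (ENSMUSG00000032773) encodes the M1 receptor, which couples to the same G proteins and is best known from neurons. Control replicates 1 to 3 had 62, 107 and 138 counts, or 1.95, 4.40 and 5.02 CPM. The knockouts had 13, 66 and 15 counts, or 0.348, 1.88 and 0.402 CPM. Knockout replicates 1 and 3 were low, while knockout replicate 2 lay just under control replicate 1. The mean level in knockout was 23.2% of control, and the fold change, at -2.11 (log2, SE 0.73, 95% interval -3.85 to -0.36), was the largest of the 10. edgeR put its adjusted p at 0.231.

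With the replicate block Chrm1 was called lower, with a log2 fold change of -2.33 and an adjusted p of 0.0141. It was also called by DESeq2 (adjusted p 0.0270), in the edgeR fit without a filter (0.000146) and without knockout replicate 2 (0.0428, log2 fold change -3.32). In the other 13 fits it was not, with adjusted p up to 0.700 with sex as a covariate, where the log2 fold change was -1.16. All 17 put it lower in knockout. The female controls averaged 4.71 CPM and the male control had 1.95 CPM. Nerve and Schwann cell markers summed to 2.55 to 4.40 CPM in control and 4.14 to 4.64 CPM in knockout, with 3 of 8 tested, 0 called, and Chat at 0 counts in every library. Their part in the result was not tested. Of the other muscarinic receptor genes, Chrm5 was at 0 counts in all 6 libraries, and Chrm2 and Chrm4 had at most 14 and 3 counts.

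Sctr (ENSMUSG00000026387, chromosome 1) encodes the secretin receptor. Control replicates 1 to 3 had 104, 63 and 8 counts, or 3.28, 2.59 and 0.291 CPM, and the knockouts 107, 80 and 57 counts, or 2.87, 2.28 and 1.53 CPM. Control replicate 3 stood far below the other 5 libraries, and the groups overlapped. The log2 fold change of 0.12 had a 95% interval from -1.67 to 1.90 (adjusted p 0.960, edgeR) and turned to -0.40 without control replicate 3. The duct markers summed to 200.3, 205 and 235 CPM in control against 271, 184 and 277 in knockout, with 9 of 10 tested, 0 called without the block and 5 with it, and Kcnj16 at 1 count or fewer in every library. The list did not move in a single direction. Spp1 was higher in every knockout than in any control, Krt19, Cftr and Muc1 were lower, and the groups overlapped for the others. Muc1 made up 126 CPM of the sum in control replicate 3, while Slc4a4 was lowest there, at 0.364 CPM. Their part in the Sctr level was not tested.

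Gnaq (ENSMUSG00000024639) encodes the alpha subunit that links these receptors to phospholipase C. It had 14.6, 14.0 and 18.2 CPM in control against 16.0, 16.3 and 16.0 in knockout, so the knockout values fell inside the control range. The log2 fold change was 0.04, with a 95% interval from -0.27 to 0.35 (adjusted p 0.919, edgeR). Gna11, its close relative with the same function, averaged 6.49 CPM per kb ± 0.598 in control and 6.45 ± 0.480 in knockout (n = 3). Both were therefore measured, and the Gna11 level per kb exceeded that of Gnaq in every group mean. Gna15, the form typical of blood cells, had at most 10 counts in any library.

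**Figure D2:**
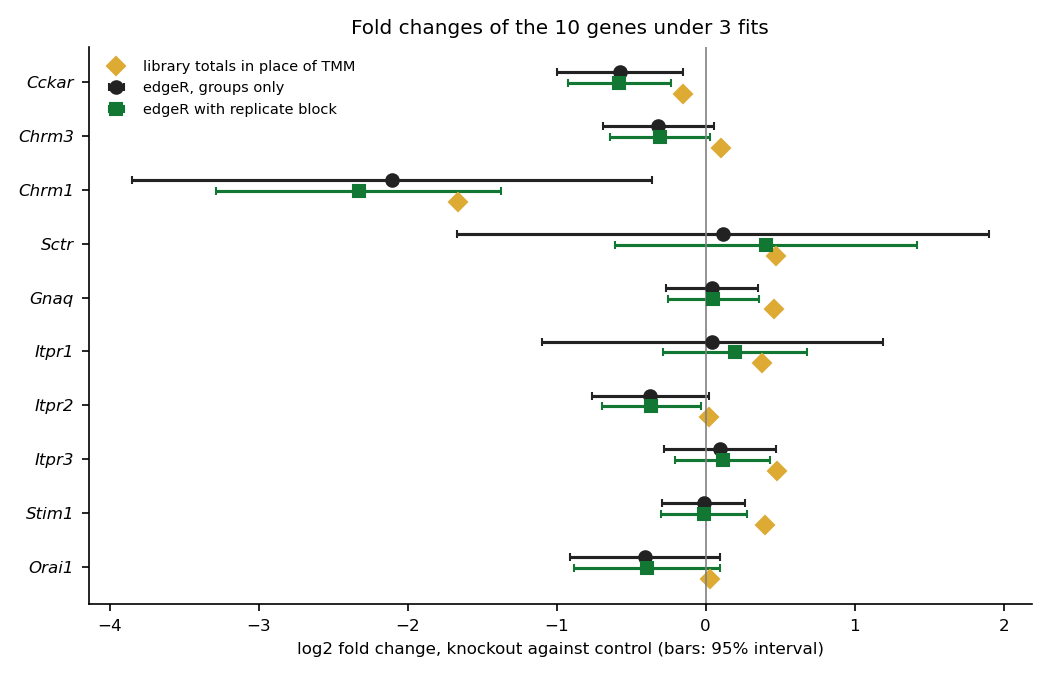
Log2 fold changes of knockout against control (x axis) for the 10 genes (y axis) in the edgeR fit on groups (black circles), with the replicate block (green squares) and with library totals as the only scaling (yellow diamonds, no interval). Bars are 95% intervals; they leave 0 out for Cckar and Chrm1 in the first fit, and the diamonds lie to the right by about the shift of all genes.

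Among the calcium release channels, Itpr2 and Itpr3 supplied most of the transcripts and Itpr1 the fewest. Itpr3 (ENSMUSG00000042644) had 19.6, 13.2 and 14.4 CPM in control against 17.0, 15.8 and 17.8 in knockout. Its log2 fold change was 0.10 (95% interval -0.28 to 0.47, adjusted p 0.840, edgeR). Itpr2 (ENSMUSG00000030287) had 21.5, 15.2 and 20.6 CPM in control against 12.9, 14.3 and 17.1 in knockout. The knockout was lower in each numbered pair, though the groups overlapped, and the log2 fold change was -0.37 (95% interval -0.76 to 0.02, adjusted p 0.325, edgeR), or 0.02 with library totals. Their products are the receptor types concentrated at the apical pole of acinar cells.

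Itpr1 (ENSMUSG00000030102) encodes the type abundant in cerebellum and smooth muscle. It had 11.3, 3.29 and 4.62 CPM in control against 8.28, 5.31 and 6.28 in knockout, with replicate 1 the highest of each group. The log2 fold change was 0.04 with a wide 95% interval from -1.10 to 1.19 (adjusted p 0.976, edgeR), and it was 0.72 once control replicate 1 was left out and -0.26 once control replicate 2 was. The smooth muscle markers were also highest in replicate 1 of each group. They summed to 40.0, 3.16 and 1.09 CPM in control against 32.1, 10.4 and 1.93 in knockout, with 4 of 6 tested, 0 called, and Tagln at 2 counts or fewer in every library. The summed leukocyte markers were also highest in replicate 1 of each group, but not all of their genes were. The sums were 123, 21.6 and 16.0 CPM in control against 83.5, 16.0 and 49.995 in knockout (9 of 10 tested, 0 called without the block and 4 with it). Cd74 alone had 44.1 CPM in knockout replicate 1. Ptprc, Cd3e, Cd79a and Cd74 were highest in knockout replicate 1, and Adgre1, Cd68, C1qa, C1qb, C1qc and Csf1r in knockout replicate 3. The list had a median log2 fold change of 0.92. The summed stromal and endothelial markers, too, were highest in replicate 1 of each group. The sums were 131, 32.7 and 48.9 CPM in control against 153, 39.7 and 118 in knockout (10 of 10 tested, 0 called). Col1a1, Col3a1, Dcn and Pdgfra were highest in knockout replicate 3, and the rest of that list in knockout replicate 1. The part of these marker lists in the Itpr1 level was not tested.

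Because a share within a library does not depend on how libraries are scaled, the mix of the 3 channels was compared as well. Itpr3 made up 51.2%, 54.9% and 49.3% of their summed counts per kb in the control libraries, in order, and 58.7%, 58.2% and 56.8% in knockout. Every knockout share was above every control share. The difference was 6.09 percentage points (control 51.8% ± 2.86, knockout 57.9% ± 0.994, SD, n = 3), with p = 0.1 in the two-sided exact permutation test, the smallest that 3 against 3 allows, and 0.15 adjusted over the 3 ratios tested. Itpr2 had the counterpart, with 34.2%, 38.4% and 42.9% in control against 27.1%, 32.2% and 33.3% in knockout. Itpr1 took 6.72% to 14.5% in control and 9.65% to 14.1% in knockout. The sum of the 3 genes was 3.38 CPM per kb ± 0.791 in control and 3.22 ± 0.232 in knockout. Within males the difference in Itpr3 share was 6.68 points, and in the 2 strand columns, each holding about 50% of the counts, it was 3.02 (forward) and 8.93 points (reverse). On forward-strand counts the groups overlapped (exact permutation p = 0.5). In the annotation Itpr3 overlaps the antisense gene Itpr3os, which had 0 counts in all libraries.

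Stim1 (ENSMUSG00000030987), the calcium sensor of the store, had 17.1, 16.0 and 19.2 CPM in control against 17.8, 16.7 and 17.2 in knockout. The groups overlapped, and the log2 fold change of -0.01 (95% interval -0.29 to 0.27, adjusted p 0.971, edgeR) was the closest to 0 of all members. With library totals it was 0.40. Orai1 (ENSMUSG00000049686), the channel pore, had 2.93, 3.61 and 4.33 CPM in control against 2.84, 2.43 and 2.92 in knockout, from 85 to 119 counts per library. The lowest control and the highest knockout, 2.93 and 2.92, nearly met. The log2 fold change was -0.41 (95% interval -0.91 to 0.10, adjusted p 0.408, edgeR), and 0.03 with library totals.

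The log2 ratio of Stim1 to Orai1, per kb, was 0.37, -0.03 and -0.03 in control against 0.47, 0.61 and 0.38 in knockout. It was higher in all 3 knockouts, by 0.39 (control 0.10 ± 0.23, knockout 0.49 ± 0.11, SD, n = 3; two-sided exact permutation p = 0.1, or 0.15 adjusted over 3). Control replicate 1, the male control, lay next to the knockouts, and within males the difference was 0.12. It was 0.05 on forward-strand counts, where the groups overlapped, and 0.74 on reverse-strand counts. Orai1 overlaps the antisense gene Gm2479, which had at most 5 counts. The third ratio, Cckar to Chrm3, did not separate the groups. Its log2 values were 5.68, 6.13 and 5.59 in control against 5.36, 5.69 and 5.52 in knockout, a difference of -0.28 (exact permutation p = 0.3).

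**Figure D3:**
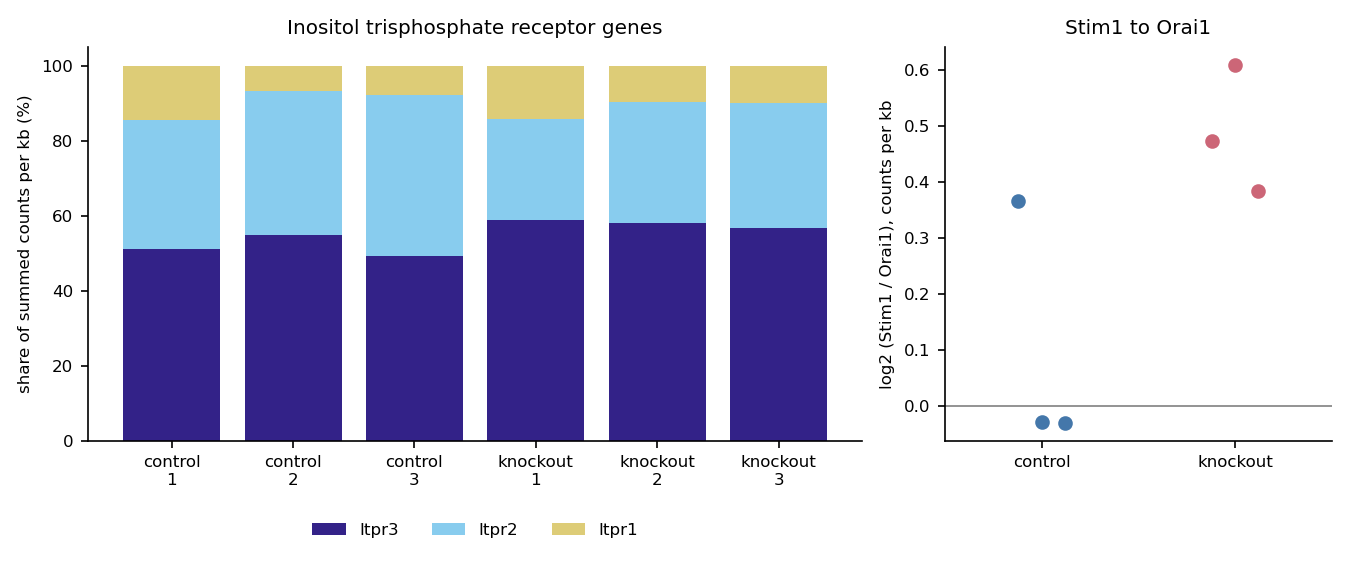
Left, share of summed counts per kb (y axis, percent) taken by Itpr3, Itpr2 and Itpr1 in each library (x axis). Right, log2 ratio of Stim1 to Orai1 per kb in control (blue) and knockout (red) libraries. Itpr3 takes 49.3% to 54.9% in control and 56.8% to 58.7% in knockout, and the highest control ratio of Stim1 to Orai1, 0.37, is just under the lowest knockout, 0.38.

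Other genes of the pathway were followed in 10 lists with 157 genes, of which 133 were tested. A single gene was called, Vipr2, and it was higher (1 of 133, against 0.945% of all genes). It encodes VPAC2, a receptor for vasoactive intestinal peptide and PACAP that, like the secretin receptor, signals through Gs. Vipr2 (ENSMUSG00000011171, chromosome 12) had 10.0, 7.15 and 7.71 CPM in control against 15.8, 17.7 and 24.1 in knockout. All 3 knockouts lay above all 3 controls. Vipr2 rose, with a control mean of 8.30 CPM ± 1.54 (SD, n = 3), a knockout mean of 19.2 ± 4.32 and a log2 fold change of 1.21 (SE 0.20, 95% interval 0.76 to 1.66, adjusted p 0.0306, edgeR). The male control, at 10.0 CPM, was below all knockouts, whose mean was 0.93 log2 units higher. The fold change was positive in all 17 alternatives, from 0.93 with sex as a covariate to 1.59 with library totals. The call was lost in 7 of them, namely forward-strand counts (adjusted p 0.0533), the sex covariate (0.285) and 5 of the 6 fits that left out a library (0.0741 to 0.175); it held without control replicate 1. Vipr2 overlaps the antisense gene Gm20658 without sharing an exon.

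The other tested receptors of that list gave no call. Vipr1, for the related receptor VPAC1, had 5.61, 5.79 and 11.5 CPM in control against 5.41, 4.71 and 5.23 in knockout (adjusted p 0.352, edgeR). Sstr2, a somatostatin receptor that restrains secretion, had 4.32, 5.50 and 5.20 CPM in control against 3.97, 3.54 and 3.78 in knockout (adjusted p 0.275, edgeR). Cckbr, the gastrin receptor, averaged 0.401 CPM per kb ± 0.238 in control, against the 90.4 of Cckar. Over the 7 tested genes the median log2 fold change was -0.19.

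With the replicate block Rgs2 was called higher and Mcur1 lower, besides Vipr2, which makes 3 of 133 where 5.99% of all tested genes were called. Rgs2 encodes a regulator that shortens Gq signals. It had 5.64, 2.14 and 4.76 CPM in control against 9.46, 3.37 and 19.7 in knockout, with the knockout above its pair each time but the groups overlapping (blocked log2 fold change 1.19, adjusted p 0.0430). The markers of a dissociation response, immediate-early and heat-shock genes, summed to 509, 41.4 and 349 CPM in control against 460, 86.5 and 636 in knockout, lowest in replicate 2 of both groups, as was Rgs2. Of these, 8 of 9 were tested and 0 called, or 1 with the block, and their part in the Rgs2 level was not tested. Mcur1, a regulator of the mitochondrial calcium uniporter, had 16.5, 15.8 and 18.6 CPM in control against 10.2, 12.8 and 11.8 in knockout (log2 fold change -0.55, adjusted p 0.107 without and 0.0440 with the block).

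The remaining lists held no call without the block. Their median log2 fold changes were -0.07 for G protein subunits and regulators (12 tested), 0.08 for inositol lipid enzymes (16), -0.05 for other store release channels and regulators (13) and 0.10 for other store-operated entry genes (7). They were -0.04 for calcium pumps, exchangers and store buffers (16), -0.16 for mitochondrial calcium uptake (8), -0.16 for calcium-dependent effectors (22), -0.10 for granule exocytosis (20) and -0.09 for the cyclic AMP arm (12). Of all 133 tested genes 52 had a fold change above 0 and 81 below, with a median of -0.09 against 0.02 over all genes. With library totals the median was 0.33 and the calls were 12 higher and 0 lower, against 1442 higher and 77 lower among all genes. An unadjusted p under 0.05 was found for 30 of the 133 in the fit with TMM factors, 9 among the 22 calcium-dependent effectors, where 16.7% of all tested genes had one. The groups lay apart in 22 genes lower and 11 higher in knockout, where 10.9% and 12.0% of all tested genes did.

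**Figure D4:**
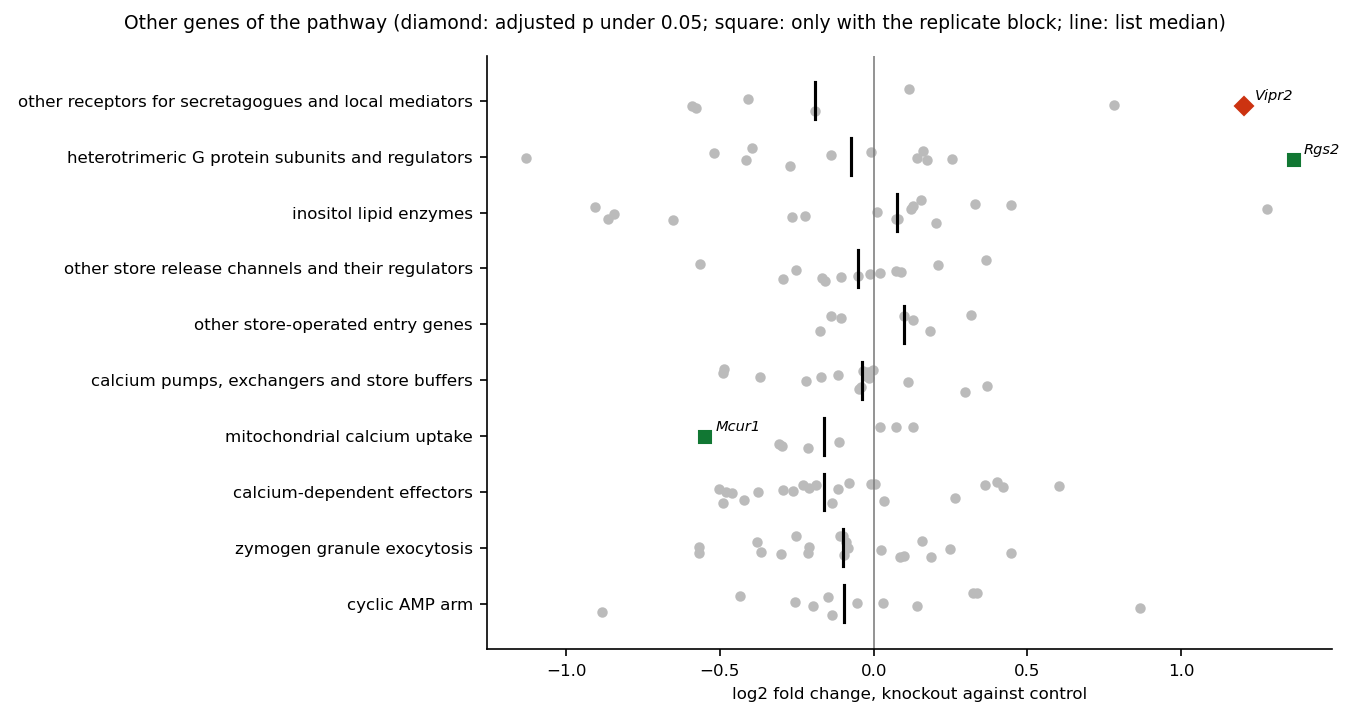
Log2 fold change of knockout against control (x axis) for the 133 tested genes of the 10 pathway lists (y axis, 1 point per gene, black lines at list medians). Vipr2, at 1.21, is the diamond called in the fit on groups, and Rgs2 and Mcur1 are the squares called only with the replicate block.

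Relatives of the store entry genes were measured in the same libraries. Orai2 averaged 6.11 CPM per kb ± 0.244 in control and 7.61 ± 0.506 in knockout, and Orai3 2.56 ± 0.436 and 2.79 ± 0.179, so that Orai1 was the lowest of the 3 in both groups. Orai2 had 38.7, 35.8 and 36.9 CPM in control against 44.9, 44.0 and 49.8 in knockout, with no overlap but an adjusted p of 0.258 (edgeR, log2 fold change 0.32). Stim2, the second store sensor, averaged 1.98 CPM per kb ± 0.333 in control and 1.80 ± 0.0816 in knockout, close to the Stim1 values of 1.68 and 1.66. Atp2a2, which encodes the SERCA2 pump that refills the store, had 73.3, 67.6 and 78.5 CPM in control against 55.5, 59.4 and 54.8 in knockout. Its groups lay apart, with a log2 fold change of -0.37 and an adjusted p of 0.217 (edgeR). Plcb4, a phospholipase C acted on by Gq, had 22.3, 32.7 and 46.9 CPM in control against 20.9, 21.01 and 14.9 in knockout (log2 fold change -0.84, adjusted p 0.199, edgeR). Orai2, Orai3, Stim2, Atp2a2, Plcb4, Vipr1, Sstr2, Cckbr, Gna11, Gna15, Muc1 and Slc4a4 were singled out after their values were seen. So were the other single acinar, duct, leukocyte, stromal and endothelial markers named here.

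For each member the protein-coding gene with the most similar pattern of log2 CPM over the 6 libraries was looked up among 12109 tested genes. It was Arhgap10 for Cckar (Pearson r 0.998), Rdh10 for Chrm1 (0.999), Lrrc41 for Chrm3 (0.996) and Atg2a for Sctr (0.989). For the channel genes it was Sptbn1 for Itpr1 (0.998), Rrm2b for Itpr2 (0.985) and Ccna2 for Itpr3 (0.996), and for Gnaq, Stim1 and Orai1 it was Sox9 (0.981), Dctn6 (0.970) and Dhrs3 (0.990). Over so few points many genes came close, and 179 genes exceeded an r of 0.95 for Cckar and 144 for Chrm1. These are descriptions over libraries that share their genotype groups, sexes and replicate numbers.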

How the data were processed

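The 6 libraries were made from Trizol-extracted RNA by poly-A enrichment and random priming, per the labels' protocols. The authors deposited raw whole-number counts per Ensembl gene, unstranded and for each strand, in the layout of STAR's gene counts; STAR 2.7.10a and build GRCm39 are named in the submitters' processing notes. Annotation, and whether a count is a read or a pair, are not given in the sources used here. The forward column held 50.1% to 50.3% of stranded gene counts, so unstranded counts were used. Rows outside genes (36.9% to 45.7% of reads, more in every control than in any knockout) stayed out. Reads mapped to several places were 26.0%, 28.4% and 27.3% in control against 21.6%, 24.1% and 22.5% in knockout, and the unmapped share was likewise higher in every control, the share outside genes lower.

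Symbols for 94.0% of identifiers, and exonic lengths, came from GENCODE M21 (GRCm38), so no genome coordinates are given. edgeR 4.0.16 (R 4.3.3) tested genes passing filterByExpr with TMM factors and the robust quasi-likelihood F test, 3 against 3, with Benjamini-Hochberg adjustment over all 13115 genes; called means adjusted p under 0.05. The SE is the log2 fold change over the square root of F. A prior count of 2 entered log2 CPM. The fits were tested on simulated data. Those data held no sex effect, no replicate pairing and no group difference in scaling. Intervals cover the spread between these samples, labelled biological replicates. A count of 3 or fewer was treated as the floor. No 2 libraries of a group agreed within sampling noise (chi-square per degree of freedom at least 26.3).

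Deviations from group means correlated at 0.630, 0.455 and 0.285 in the pairs with the same replicate number, all above 0.1. Pairs of unlike number ran from -0.496 to 0.210, and the highest, control 3 with knockout 2, was also above 0.1. The numbers come from the labels, which do not say what samples of a number share. They were taken to pair the samples on the basis of these same data. Blocked values are given where they change a call. The other alternatives were library totals, RLE factors, enzymes left out of library sizes, 2 other count filters, DESeq2 1.42.0, limma-voom (limma 3.58.1), either strand, sex as a covariate, and leaving out each library. Named were the 10 members, Trip12, listed pathway genes called with or without the block, and the most similar gene per member. Members and lists were chosen with earlier results of these data known. Tumour cell lines, which the series also covers, are not analysed here.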

Additional observations from a re-analysis of the deposited data

How the results depend on the processing

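The count of all genes called (124) was 1519 with library totals, 850 without a filter, 210 where every library had to reach 10 counts, 594 with DESeq2, 785 with the replicate block, 21 with the sex covariate, and 20 to 461 with 1 library left out. The count of members called (0) was 1 without a filter (Chrm1), 2 with DESeq2, 1 with the replicate block, and 0 to 1 with a library left out, where the call came without knockout replicate 2. The count of pathway genes called (1) was 12 with library totals, all higher, 6 without a filter, 5 with DESeq2, 0 on forward-strand counts, 3 with the replicate block, 0 with the sex covariate, and 0 to 4 with a library left out. The replicate block changed no call of a member or listed gene other than Chrm1, Rgs2 and Mcur1.

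Cckar and Chrm1 kept their direction in all 17 alternatives. With library totals the log2 fold change turned to 0.10 for Chrm3, 0.024 for Itpr2, 0.40 for Stim1 and 0.028 for Orai1. With the sex covariate it turned to -0.56 for Sctr, -0.77 for Itpr1, -0.22 for Itpr3 and 0.016 for Stim1. It also turned for Gnaq on reverse-strand counts (-0.091), and for Stim1 where every library had to reach 10 counts (0.0048), a filter that left Sctr untested. With a library left out it spanned -0.40 to 0.61 for Sctr, -0.032 to 0.17 for Gnaq, -0.26 to 0.72 for Itpr1, -0.014 to 0.26 for Itpr3 and -0.071 to 0.061 for Stim1. The Stim1 to Orai1 difference was 0.12 in males. The other ratio values kept their direction. The causes were not tested, beyond the shift of 0.41 that library totals give all genes. Chrm1, Sctr and Orai1 rest on 8 to 138 counts per library, so their strand columns and fold changes are imprecise.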
